A study of Mus musculus with 8 samples.

Results

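Cytosolic ribosomal protein genes were followed across the cell clusters of mouse dorsal root ganglia, the ganglia that hold the cell bodies of the body's sensory neurons. They were found by name in the marker table: symbols that start with Rpl or Rps followed by a digit, together with Rpsa, Rplp0, Rplp1 and Rplp2, without the Rps6k kinase genes and without pseudogenes named with -ps. This rule found 82 of the 9229 genes in the table. They comprise 46 genes of the large (60S) subunit, 31 of the small (40S) subunit, and 5 paralogs or like-named genes, which are Rpl22l1, Rpl36al, Rps27l, Rpl7l1 and Rps19bp1. The last of these encodes a binding partner of Rps19 and no ribosomal protein, and it was kept because the rule finds it.

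The ganglia came from C57BL/6 mice aged 21 to 30 days, and those of 4 mice were pooled for each sample. Living cells were labelled for the proteasome subunit β5 with an antibody and sorted into cells with and without the surface label of the neuronal membrane proteasome (NMP), and both populations had been through the labelling. The labels list 8 samples, 4 for each of the 2 populations, from droplet libraries with 3′ end counting. Their descriptions carry lane numbers and the same library name within a population, so the 4 were taken as lanes of 1 library, with no replicate, though the labels do not state this. All values here are from a table of cluster markers in which 20 clusters carry the authors' names, no column belongs to a sample or population, and each cluster is set against all other cells together.

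A ribosome joins a small subunit, which reads the mRNA, to a large subunit, which forms the peptide bonds and carries a flexible stalk that recruits the translation factors. Each subunit is built from ribosomal RNA and a fixed set of proteins, and their mRNAs are among the most abundant of a cell. These mRNAs begin with a 5′ terminal oligopyrimidine (TOP) tract, an unbroken run of C and T bases at the first transcribed base, through which the mTORC1 pathway and Larp1 adjust their translation. In sensory neurons ribosomal protein mRNAs are also known to be carried into axons.

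The start sites are shown first, because the run of C and T at the start is the feature for which this gene family is known. RefSeq's promoter table for GRCm38.p6 held 62 of the 82 members and had no entry for 20. A run of at least 8 bases that are C or T, on the gene's own strand and reaching within 5 bases of a listed start, was present in 24 of the 62 members (38.7%) and in 11.4% of the 27025 genes in the promoter table. Rps6 is shown as the target of the S6 kinases, Rpl15, Rpl27a and Rpl35 for their long runs, Rpl28 and Rps27 for their fold changes, and Rplp0, Rpl22, Rpl22l1, Rpl36a and Rpl36al because their fold changes differed from those of other members or of their paralogs. Rpl22 was chosen after its values were seen. Each line gives 10 bases before and 20 bases from the listed start, 5′ to 3′, with the longest run of C and T that reaches within 5 bases of the start in capitals, and for Rpl22 1 of its 2 listed starts is shown.
Rps6, chr4:86857348-86857377, minus strand: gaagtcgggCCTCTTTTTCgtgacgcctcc
Rps27, chr3:90213629-90213658, minus strand: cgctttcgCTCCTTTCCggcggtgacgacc
Rpl15, chr14:18270967-18270996, minus strand: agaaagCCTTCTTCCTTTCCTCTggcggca
Rpl27a, chr7:109519185-109519214, plus strand: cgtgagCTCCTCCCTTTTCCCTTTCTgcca
Rpl28, chr7:4792955-4792984, plus strand: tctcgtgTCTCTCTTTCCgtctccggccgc
Rpl35, chr2:39005112-39005141, minus strand: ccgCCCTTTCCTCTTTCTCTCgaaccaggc
Rplp0, chr5:115559457-115559486, plus strand: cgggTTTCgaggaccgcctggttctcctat
Rpl22, chr4:152324426-152324455, plus strand: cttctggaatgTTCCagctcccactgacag
Rpl22l1, chr3:28805498-28805527, plus strand: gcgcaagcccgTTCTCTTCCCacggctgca
Rpl36a, chrX:134585644-134585673, plus strand: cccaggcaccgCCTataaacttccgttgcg
Rpl36al, chr12:69184048-69184077, minus strand: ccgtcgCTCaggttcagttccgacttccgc
The first 6 and Rpl22l1 carry a long run at the listed start, while the lines of Rplp0, Rpl22, Rpl36a and Rpl36al do not. A RefSeq start need not be the start used in these cells. Over the 300 bases of each promoter, from 250 before to 50 after the start and on both strands, the letters CCGGAAG were found in 25 of the 62 members (40.3%) and in 9.93% of all genes. The letters CTTTT, which can lie inside a run of C and T, occurred in 34 members (54.8%) against 57.0% of all genes, and TATAAA in 7 members (11.3%) against 15.7%. These matches describe the letters of the window and no binding.

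The table lists a gene for a cluster only where its p-value is at most 0.01, its absolute log2 fold change at least 0.25, and its transcript found in at least 10.0% of the cluster's cells or of the other cells. A gene not listed for a cluster was therefore not read as 0 or as equal to the other cells. In the following, a gene is called higher or lower in a cluster where its deposited adjusted p-value is under 0.05, with the sign of the log2 fold change giving the direction. Those p-values count cells and not animals, and the same expression values were the basis of the clustering, so they serve as a filter and not as a test. Every fold change is a difference for 1 gene between a cluster and all other cells, all clusters share most of those other cells, and no levels are compared between genes.

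Transcripts of most members were found in most of the pooled other cells, and in Low.UMI.LTMR the median share of cells over its listed members was 46.95%. The median share of other cells with a member's transcript ran from 40.6% to 95.1% over the members, with a median of 86.0%, and 80 of the 82 members were among the 1755 genes of the table whose median share reached 50%. Of the 1640 possible pairs of member and cluster, 658 were listed. Among these, 241 were called higher, 283 lower, and 134 did not pass the filter. In the 10 clusters with names of neuron classes, 28 pairs of a member were higher and 166 lower, against 10033 higher and 6205 lower over all genes. In the 7 clusters named Unknown, 198 were higher and 85 lower, against 6576 and 17526. In the pooled counts of both of these kinds the members leaned opposite to all genes, though not in each cluster. In the 3 clusters named Low.UMI, 15 were higher and 32 lower, against 3005 and 5702. Low.UMI.LTMR held 30 of these lower calls. In Low.UMI.Nonpep (8 higher, 1 lower) and Low.UMI.Pep (7 higher, 1 lower) the members leaned opposite to all genes. The widely detected genes, those 1755 with a median share of at least 50%, also leaned to higher calls there. Of these, 28.5% and 29.9% were higher and 19.5% and 19.4% lower, while 9.76% and 8.54% of the members were higher.

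**Figure D1:**
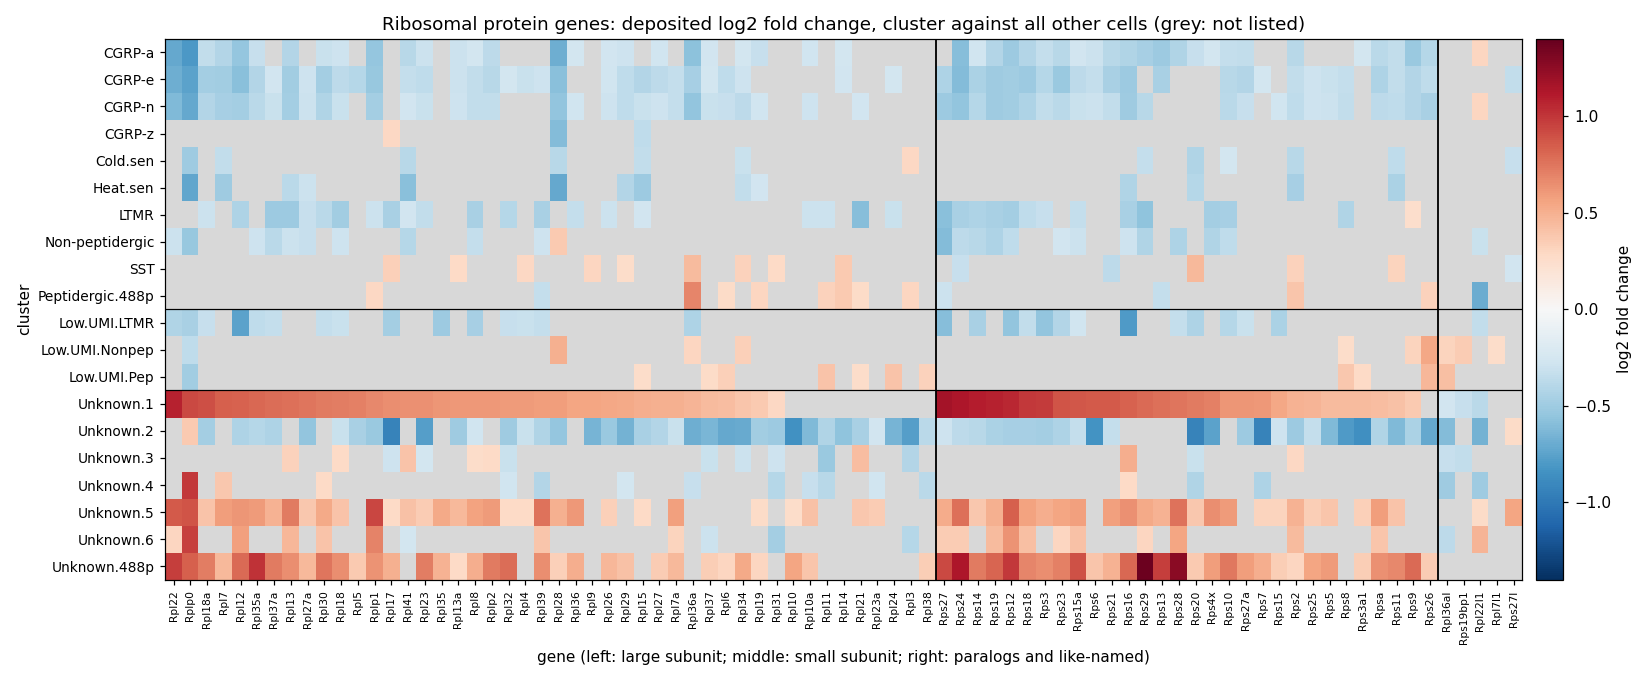
Deposited log2 fold change of the ribosomal protein genes (columns, without 1 gene that is not reported here, in order of large subunit, small subunit, and paralogs or like-named genes) in each of the 20 clusters (rows) against all other cells, with red for higher, blue for lower and grey where the table lists no value. Whole rows take 1 colour: Unknown.1, Unknown.5 and Unknown.488p are mostly red, and Low.UMI.LTMR, Unknown.2 and the CGRP-a, CGRP-e and CGRP-n rows mostly blue.

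The most members were higher in Unknown.1, where 67 of the 82 members (81.7%) were called higher and 2 lower, against 18% of all 9229 genes higher and 28.8% lower. The median of its 70 listed members was a log2 fold change of 0.62, in a range from -0.38 to 1.16, while the median over all genes listed for the cluster was -0.31. The 6 endothelial markers on the list fixed for that cell type (such as Cldn5 and Pecam1) were all higher in Unknown.1. In Unknown.5, in which all 7 fibroblast markers were higher, 57 members (69.5%) were higher and 0 lower, against 9.67% and 20.4% of all genes, with a median of 0.50 over 60 listed members. In Unknown.488p, in which all 7 macrophage markers were higher, 46 members (56.1%) were higher and 0 lower, against 9.91% and 33%, with a median of 0.59 over 64 listed. In each of these 3 clusters all genes together leaned to lower calls, and the ribosomal protein genes leaned the other way.

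The opposite pattern stood in Unknown.2, in which all 7 markers of satellite glia, the cells that wrap the neurons of the ganglion, were higher. Of its 66 listed members, 63 (76.8% of 82) were lower and 2 higher, against 27.4% of all genes lower and 13% higher, and the median was -0.49. Among widely detected genes the lower share was larger, with 51.4% lower and 13.3% higher. The 2 higher members were Rplp0 and Rps27l. Unknown.6, the other cluster in which all 7 fibroblast markers were higher, had 16 members higher and 1 lower among 25 listed, against 7.39% and 25.5% of all genes, so 19.5% of the members were higher there, with a median of 0.39. Both fibroblast-marker clusters thus gave mostly higher members, in 57 genes for Unknown.5 and in 16 for Unknown.6, and the difference between these counts was not tested.

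Unknown.3 and Unknown.4 gave few calls in either direction. In Unknown.3, in which all 6 mural cell markers were higher, 8 members were higher and 7 lower against 8.05% and 28.4% of all genes. Its members therefore split, and its median of -0.29 over 19 listed members hides that split. In Unknown.4, in which all 6 Schwann cell markers were higher and 4 of the satellite glia markers too, 2 members were higher and 12 lower, against 5.21% and 26.4%. The share of members lower in Unknown.4 (14.6%) was thus below the share of all genes that were lower.

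Among the neuron classes, the clusters CGRP-a, CGRP-e and CGRP-n had the most members called lower. Cell numbers per cluster were not given, and how far they move the number of calls was not tested. In CGRP-a 38 members (46.3%) were lower and 1 higher, against 7.26% and 12.5% of all genes, in CGRP-e 39 (47.6%) were lower and 0 higher, against 5.65% and 9.77%, and in CGRP-n 37 (45.1%) were lower and 1 higher, against 4.32% and 9.61%. Their medians were -0.34, -0.38 and -0.35. These clusters are named for calcitonin gene-related peptide, the product of Calca and a mark of peptidergic nociceptors. CGRP-z listed 3 members, of which 1 was higher and 1 lower, against 11.3% and 0.715% of all genes.

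Lower calls also outnumbered higher ones in 4 other neuron clusters, in fewer members. LTMR had 25 members lower (30.5%) and 1 higher, against 8.46% and 12.5% of all genes, with a median of -0.42. Non-peptidergic had 11 lower and 1 higher, against 9.71% and 9.86%, so its 13.4% of members lower lay near the share of all genes. Cold.sen had 8 lower and 1 higher, against 5.44% and 11%, and Heat.sen had 4 lower and 0 higher, against 1.18% and 12.6%. The medians over listed members were -0.34 in Non-peptidergic, -0.35 in Cold.sen and -0.43 in Heat.sen. Those of LTMR and Heat.sen thus lay further below 0 than those of CGRP-a, CGRP-e and CGRP-n. With 13 and 14 members listed, Cold.sen and Heat.sen left most of the family without a value.

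A pair of neuron clusters leaned to higher members. In SST 12 of 15 listed members were higher and 1 lower, against 12.5% and 10.7% of all genes, and in Peptidergic.488p 10 of 15 were higher and 2 lower, against 7.05% and 13.8%. As shares of the 82 members these are 14.6% and 12.2% higher. The SST share was near that of all genes and below that of widely detected genes, 22.3%, and in Peptidergic.488p the share among widely detected genes was 20.8%, also above the members' share.

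**Figure D2:**
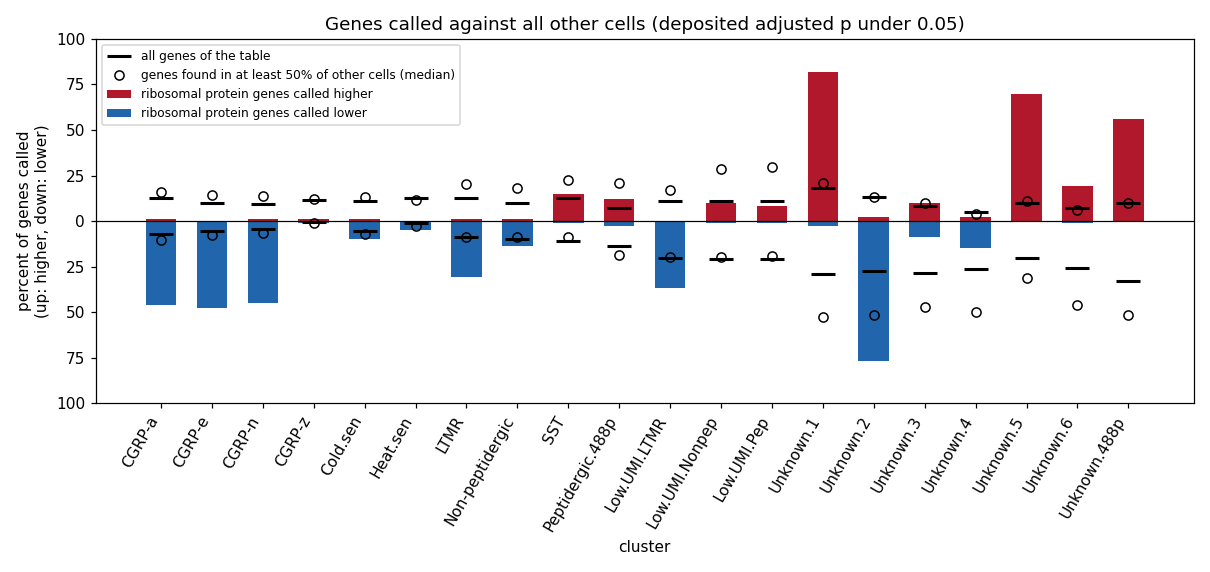
Percent of the 82 ribosomal protein genes called higher (red bars, upward) or lower (blue bars, downward) in each cluster, with the same percent over all 9229 genes (black dashes) and over the 1755 genes with a median share of other cells of at least 50% (open circles). The red bars pass both marks in Unknown.1, Unknown.5, Unknown.488p and Unknown.6, and the blue bars do so in Unknown.2, the 3 clusters CGRP-a, CGRP-e and CGRP-n, LTMR and Low.UMI.LTMR among others.

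The 3 clusters that the authors named for low counts of unique molecular identifiers (UMIs), the tags that mark single captured molecules, did not move together. Low.UMI.LTMR listed 30 members, of which 30 (36.6% of 82) were lower and 0 higher, against 20.1% and 10.9% of all genes, with a median of -0.41. Low.UMI.Nonpep had 8 higher and 1 lower, against 10.9% and 21%, and Low.UMI.Pep had 7 higher and 1 lower, against 10.8% and 20.7%. The higher shares in these last 2 clusters, 9.76% and 8.54% of the members, lay below the share of all genes. They also lay below the shares of widely detected genes, 28.5% and 29.9%.

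The fold change of a member and the share of cells with its transcript often pointed in opposite directions. Of the 166 lower calls in the neuron clusters, 164 were of genes whose transcripts were more frequent within the cluster than outside it. In CGRP-n the median share over listed members was 100% of the cluster's cells against 86.35% of other cells, beside a median log2 fold change of -0.35. In the Low.UMI clusters the reverse held, since all 15 higher calls were of genes less frequent within the cluster than outside it. In Low.UMI.Pep the median was 73.3% of the cluster's cells against 91.2%. Both measures were lower in Low.UMI.LTMR, with a median share of 46.95% in the cluster against 86.55%. Both were higher in Unknown.1, with 98.1% against 85.35%, and in Unknown.5, with 96.8% against 86.15%. In Unknown.2, 54 of the 63 lower members were more frequent within the cluster, with medians of 91.5% and 86.45%. The table gives no depth per cell, so how far depth per cell moves with these values was not tested.

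**Figure D3:**
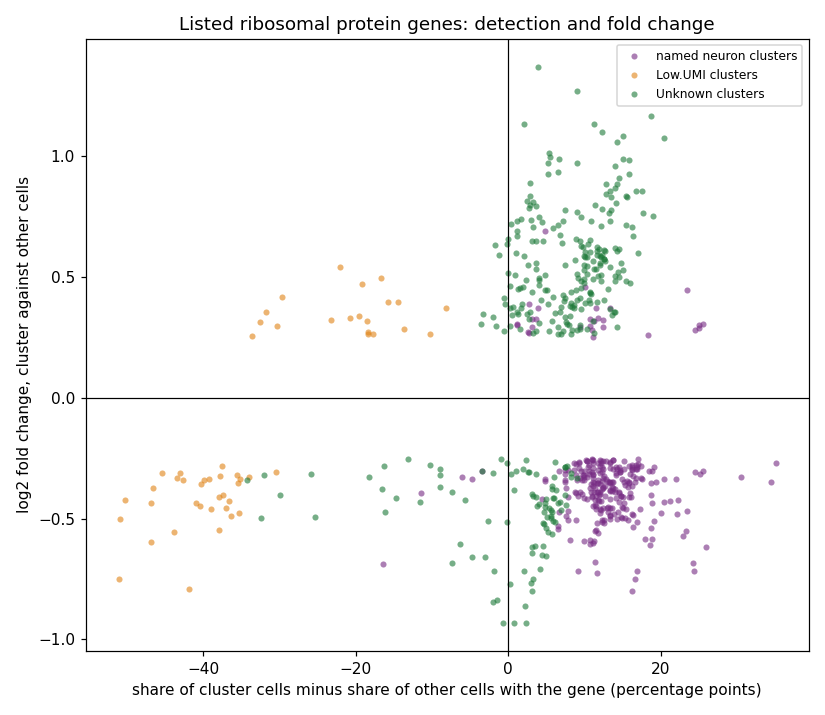
Each point is 1 of the 658 listed pairs of ribosomal protein gene and cluster, by the share of cluster cells minus the share of other cells with the transcript (x axis, percentage points) and the log2 fold change (y axis), coloured by cluster kind. Points of neuron clusters crowd at the lower right, where a gene is lower in fold change and found in more of the cells, and the higher points of the Low.UMI clusters lie at the upper left.

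Other RNA classes that bear on cell quality moved between the same clusters. Of the 13 mRNAs encoded by mitochondrial DNA, 8 to 11 were higher and 0 lower in each neuron cluster apart from Peptidergic.488p, where 0 were higher and 11 lower. All 12 listed were lower in Low.UMI.LTMR, with a median of -2.13, and all 13 in Low.UMI.Pep, with a median of -2.68. All 12 listed were also lower in Low.UMI.Nonpep, with a median of -0.90. In Unknown.1 7 were lower with a median of -0.54, and in Unknown.2 10 were higher with a median of 0.54. In Unknown.3, Unknown.4 and Unknown.5, 11, 10 and 6 were higher and 0 lower, with a median of 0.46 in Unknown.5. In Unknown.6 and Unknown.488p 0 were called in either direction. In the authors' deposited table Malat1, a nuclear long non-coding RNA, had log2 fold changes of -4.20 in Low.UMI.LTMR, -3.81 in Low.UMI.Nonpep and -4.20 in Low.UMI.Pep, and of 0.71 and 1.78 in Unknown.1 and Unknown.2. Malat1 was also higher in Unknown.3 (1.84), Unknown.4 (1.28), Unknown.5 (0.63) and Unknown.6 (0.97), and had no listed value in Unknown.488p. Among the neuron clusters the authors' deposited table gives Malat1 lower in Peptidergic.488p (-2.52), SST (-2.49) and LTMR (-1.55). It was higher in Cold.sen (0.40) and Heat.sen (0.34) in the authors' deposited table. Of the 10 neuron markers, 9 or 10 were lower in each Unknown cluster, yet the authors' deposited table gives Calca transcripts in 34.2% to 61% and Tac1 transcripts in 31.5% to 47.2% of the cells of those clusters. The part of these RNAs in the ribosomal protein values was not tested.

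**Figure D4:**
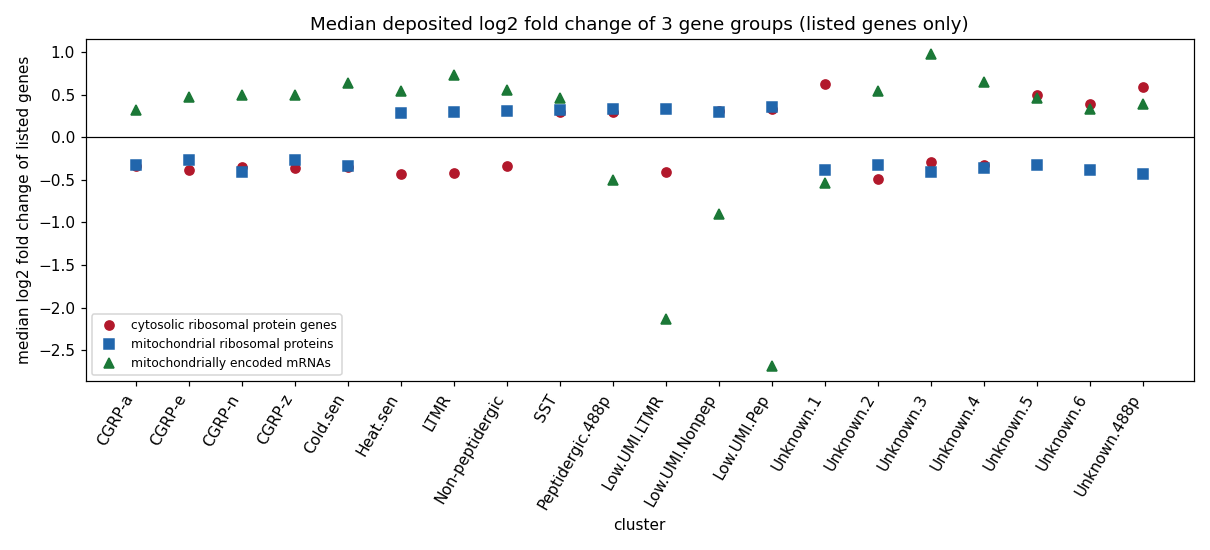
Median log2 fold change per cluster over the listed genes of 3 groups: cytosolic ribosomal proteins (red circles), mitochondrial ribosomal proteins (blue squares) and mRNAs encoded by mitochondrial DNA (green triangles). In Unknown.1, Unknown.5, Unknown.6 and Unknown.488p the cytosolic group lies above 0 and the mitochondrial ribosomal group below, and the green points reach their lowest values, -2.13 and -2.68, in Low.UMI.LTMR and Low.UMI.Pep.

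The small subunit genes had a median of the same sign as the large subunit genes in every cluster that lists them, apart from Unknown.3 and Peptidergic.488p. In Unknown.1 30 of the 31 were higher, with a median of 0.74, against 37 of 46 large subunit genes with a median of 0.60. In Unknown.488p the medians were 0.66 for the small and 0.51 for the large subunit, and in Unknown.5 they were 0.51 and 0.47. The small subunit was also the lower one in the CGRP clusters, with medians of -0.39 against -0.31 in CGRP-a and -0.41 against -0.35 in CGRP-e, and in LTMR, with -0.45 against -0.34. In Unknown.2 the order turned, with -0.47 for the small and -0.50 for the large subunit. These medians cover listed members only, and the difference between subunits was not tested.

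Rps27 and Rps29 are small zinc-binding proteins of the 40S subunit. Rps27 had the highest value of any member in Unknown.1 and Rps29 the highest of any member in any cluster. The authors' deposited table gives Rps27 a log2 fold change of 1.16 in Unknown.1, where 98.3% of cells held its transcript against 79.5% of other cells. It was 0.93 in Unknown.488p, 0.52 in Unknown.5 and 0.35 in Unknown.6 in the authors' deposited table, and called higher in each. The lower calls of Rps27 in the authors' deposited table were -0.51 in CGRP-n, -0.58 in LTMR, -0.60 in Low.UMI.LTMR and -0.61 in Non-peptidergic, the lowest value of any member in that last cluster. Rps27 thus lay on opposite sides in the neuron clusters and in 4 of the Unknown clusters. Its values of -0.44 in CGRP-e, -0.30 in Peptidergic.488p and -0.29 in Unknown.2 in the authors' deposited table did not pass the filter.

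Rps29 had the widest range of all members, 1.93 on the log2 scale over the 9 clusters that list it. Its log2 fold change in the authors' deposited table was 1.37 in Unknown.488p, 0.79 in Unknown.1, 0.53 in Unknown.5 and 0.30 in Unknown.6, each called higher. The authors' deposited table gives -0.56 in LTMR, -0.46 in CGRP-a, -0.42 in Non-peptidergic and -0.39 in CGRP-n, each called lower, and -0.33 in Cold.sen, which did not pass. In Unknown.488p, where its fold change was the largest of the family, Rps29 was found in 92.5% of cells against 88.6% of other cells in the authors' deposited table.

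Rps6, the 40S protein that S6 kinases phosphorylate when mTORC1 is active, was higher in Unknown.1 with a log2 fold change of 0.86 and lower in Unknown.2 with -0.84 in the authors' deposited table. Its values in CGRP-a, CGRP-e and CGRP-n (-0.30, -0.34 and -0.30) and in Unknown.488p (0.39) in the authors' deposited table did not pass the filter. Rpsa, a 40S protein also known as a laminin receptor, passed in 7 clusters: the authors' deposited table gives -0.38, -0.43 and -0.36 in CGRP-a, CGRP-e and CGRP-n, -0.42 in Unknown.2, 0.43 in Unknown.1, 0.58 in Unknown.5 and 0.64 in Unknown.488p. The signs of Rps6 and Rpsa thus followed the family in every cluster that lists them.

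Other small subunit genes stood at an end of a single cluster. Rps20, which lies in the head of the 40S subunit, had the highest value of any member in SST, 0.46, and a value of -0.93 in Unknown.2 in the authors' deposited table. Rps26, which lines the exit of the mRNA channel, had the highest value in Low.UMI.Nonpep (0.54) and in Low.UMI.Pep (0.47), and was also higher in Peptidergic.488p (0.33) in the authors' deposited table. In those Low.UMI clusters 66.7% and 69.7% of cells held Rps26 transcripts, against 88.8% and 88.9% of other cells in the authors' deposited table. Rps26 was lower in CGRP-a, CGRP-n and Unknown.2, with -0.40, -0.46 and -0.72 in the authors' deposited table.

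Rps16, whose tail reaches the tRNA in the P site, had both an extreme low and an extreme high. The authors' deposited table gives it -0.79 in Low.UMI.LTMR, with 46.5% of cells against 88.4%, and 0.51 in Unknown.3, the highest value of any member there. Rps9 was the exception of LTMR, where it was higher with 0.25 while 25 members were lower, and the authors' deposited table has it lower in CGRP-a with -0.52. Rps21 was the exception of SST, lower there with -0.37 in the authors' deposited table. Rps15a had the value nearest 0 among the 30 lower members of Low.UMI.LTMR, which is -0.28 in the authors' deposited table.

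Among the large subunit genes, those of the stalk are described first. Rplp0 anchors the stalk, and Rplp1 and Rplp2 bind to it as dimers. Rplp0 was listed in 15 clusters, more than any other member, and passed the filter in all 15, higher in 6 and lower in 9. In the authors' deposited table its higher values were 0.99 in Unknown.4, 0.96 in Unknown.6, 0.92 in Unknown.1, 0.88 in Unknown.5, 0.83 in Unknown.488p and 0.36 in Unknown.2. Its lower values in the authors' deposited table were -0.80 in CGRP-a, -0.75 in CGRP-e, -0.73 in Heat.sen, -0.72 in CGRP-n, -0.53 in Non-peptidergic, -0.50 in Cold.sen, -0.49 in Low.UMI.Pep, -0.45 in Low.UMI.LTMR and -0.35 in Low.UMI.Nonpep. Every listed Unknown cluster was therefore on the higher side for Rplp0 and every listed neuron or Low.UMI cluster on the lower side, also in Unknown.2 and Unknown.4, where most called members were lower, and in Low.UMI.Pep and Low.UMI.Nonpep, where most called members were higher.

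Rplp1 followed the family more closely than Rplp0. It had -0.54, -0.53 and -0.47 in CGRP-a, CGRP-e and CGRP-n, and 0.93, 0.70, 0.67 and 0.63 in Unknown.5, Unknown.6, Unknown.1 and Unknown.488p in the authors' deposited table. In Unknown.2 Rplp1 was lower with -0.52, where Rplp0 was higher with 0.36 in the authors' deposited table. Rplp2, described because it completes the stalk, had -0.37, -0.39 and -0.35 in the same CGRP clusters and 0.73, 0.60 and 0.59 in Unknown.488p, Unknown.1 and Unknown.5 in the authors' deposited table. The 3 stalk genes thus shared a sign in 6 clusters, and Unknown.2 gave opposite calls to Rplp0 and Rplp1.

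Rpl28, a 60S protein, took different sides within the neuron clusters. In the authors' deposited table it was lower in Heat.sen (-0.72), CGRP-a (-0.68), CGRP-z (-0.60), CGRP-e (-0.59), CGRP-n (-0.55) and Cold.sen (-0.39). In Non-peptidergic it was higher with 0.37, the sole higher member there, and in Low.UMI.Nonpep with 0.50 in the authors' deposited table, although 74.2% of that cluster's cells held it against 90.9% of other cells. Both clusters with names of the non-peptidergic class therefore had Rpl28 higher. It was also higher in Unknown.1 (0.58) and Unknown.5 (0.49) and lower in Unknown.2 (-0.54) in the authors' deposited table.

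Rpl3, which reaches toward the peptidyl transferase centre of the 60S subunit, went against most called members in Cold.sen and Unknown.6 and with them in Peptidergic.488p and Unknown.2. It was the sole higher member in Cold.sen (0.29) and was higher in Peptidergic.488p (0.31), and it was lower in Unknown.2 (-0.77), Unknown.3 (-0.41) and Unknown.6 (-0.40) in the authors' deposited table. In Unknown.6 it was the sole lower member. Rpl11, which with Rpl5 joins the 5S RNA and can bind Mdm2, had the lowest value in Unknown.3, -0.51, and was higher in Low.UMI.Pep, 0.40, in the authors' deposited table. Rpl17, a protein at the exit of the peptide tunnel, had the lowest value in Unknown.2, -0.93, and was the sole higher member in CGRP-z, 0.29, in the authors' deposited table.

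The remaining ends among 60S genes were of moderate size. Rpl21 had the lowest value in LTMR, -0.59, and was higher in Unknown.3 with 0.44 in the authors' deposited table. Rpl15 was lower in Heat.sen with -0.51, the value nearest 0 of the 4 lower members there, in the authors' deposited table. Rpl27a had the lower value nearest 0 in CGRP-e, -0.29, and the smallest higher value in Unknown.488p, 0.45, in the authors' deposited table, and Rpl19 the smallest in Unknown.5, 0.26. Rpl7 was higher in Unknown.4 with 0.37, the other exception there beside Rplp0, in the authors' deposited table. Rpl41, the smallest ribosomal protein, was listed in 11 clusters and gave -0.59 in Heat.sen, -0.39 in CGRP-a and in Cold.sen, -0.40 in Non-peptidergic, 0.65 in Unknown.1 and 0.40 in Unknown.3 in the authors' deposited table.

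The core genes listed in the fewest clusters were Rpl10, Rpl23a and Rpl9, each in 3. Rpl10, one of the last proteins to join the 60S subunit, was lower in Unknown.2 with -0.85 and higher in Unknown.488p with 0.56 in the authors' deposited table. Rpl23a, which lies at the tunnel exit, was -0.27 in Unknown.2, -0.28 in Unknown.4 and 0.35 in Unknown.5, and Rpl9 was 0.30 in SST, 0.55 in Unknown.1 and -0.65 in Unknown.2 in the authors' deposited table. All 3 were lower in Unknown.2, as most of the family was.

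The paralogs were called with their parent genes in some clusters and against them in others. Rpl22, an RNA-binding 60S protein, and Rpl22l1, its paralog, are known to regulate each other. The authors' deposited table has Rpl22 higher in Unknown.1 (1.07), Unknown.488p (0.97), Unknown.5 (0.85) and Unknown.6 (0.30) and lower in CGRP-a (-0.72), CGRP-e (-0.68) and Low.UMI.LTMR (-0.42). Its paralog Rpl22l1 in the authors' deposited table was higher in CGRP-a (0.31), CGRP-n (0.30) and Unknown.6 (0.47), and lower in Unknown.1 (-0.38), Unknown.2 (-0.66), Unknown.4 (-0.49), Peptidergic.488p (-0.69) and Low.UMI.LTMR (-0.34). The calls of the paralogs were thus opposite in CGRP-a and in Unknown.1 and alike in Unknown.6 and Low.UMI.LTMR. In Peptidergic.488p 59.3% of cells held Rpl22l1 transcripts against 75.7% of other cells in the authors' deposited table.

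Rpl36al is an intron-poor copy of the X-linked gene Rpl36a and encodes a nearly identical protein. Rpl36a in the authors' deposited table was higher in Peptidergic.488p (0.69, the highest value of any member there), Unknown.1 (0.47) and SST (0.44), and lower in Unknown.2 (-0.68), CGRP-a (-0.57), CGRP-n (-0.55), Low.UMI.LTMR (-0.43) and Unknown.4 (-0.32). Rpl36al was lower in Unknown.2 (-0.61) and Unknown.4 (-0.50) and higher in Low.UMI.Nonpep (0.31) in the authors' deposited table. Both were lower in Unknown.2 and Unknown.4. In Unknown.1 the value of Rpl36al, -0.27 in the authors' deposited table, did not pass. The treatment of reads that match both copies was not given in the sources used here, so the split between them is uncertain, as it may be for members with pseudogene copies.

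Rps27l, the paralog of Rps27 and a known p53 target, was found in fewer cells than its parent. It was higher in Unknown.5 with 0.55, where Rps27 was higher with 0.52, and higher in Unknown.2 with 0.27 in the authors' deposited table. Its values of -0.35 in CGRP-e, -0.33 in Cold.sen and -0.27 in SST in the authors' deposited table did not pass, although 89.8% to 93.7% of those clusters' cells held it. Rpl7l1, a nucleolar relative of Rpl7, was listed in 1 cluster, Low.UMI.Nonpep, with 0.25 and a share of 10.4% against 44% in the authors' deposited table. Rps19bp1 was lower in Unknown.1 (-0.32) and Unknown.3 (-0.34) and higher in Low.UMI.Nonpep (0.35) in the authors' deposited table, so it went against the ribosomal proteins in Unknown.1.

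**Figure D5:**
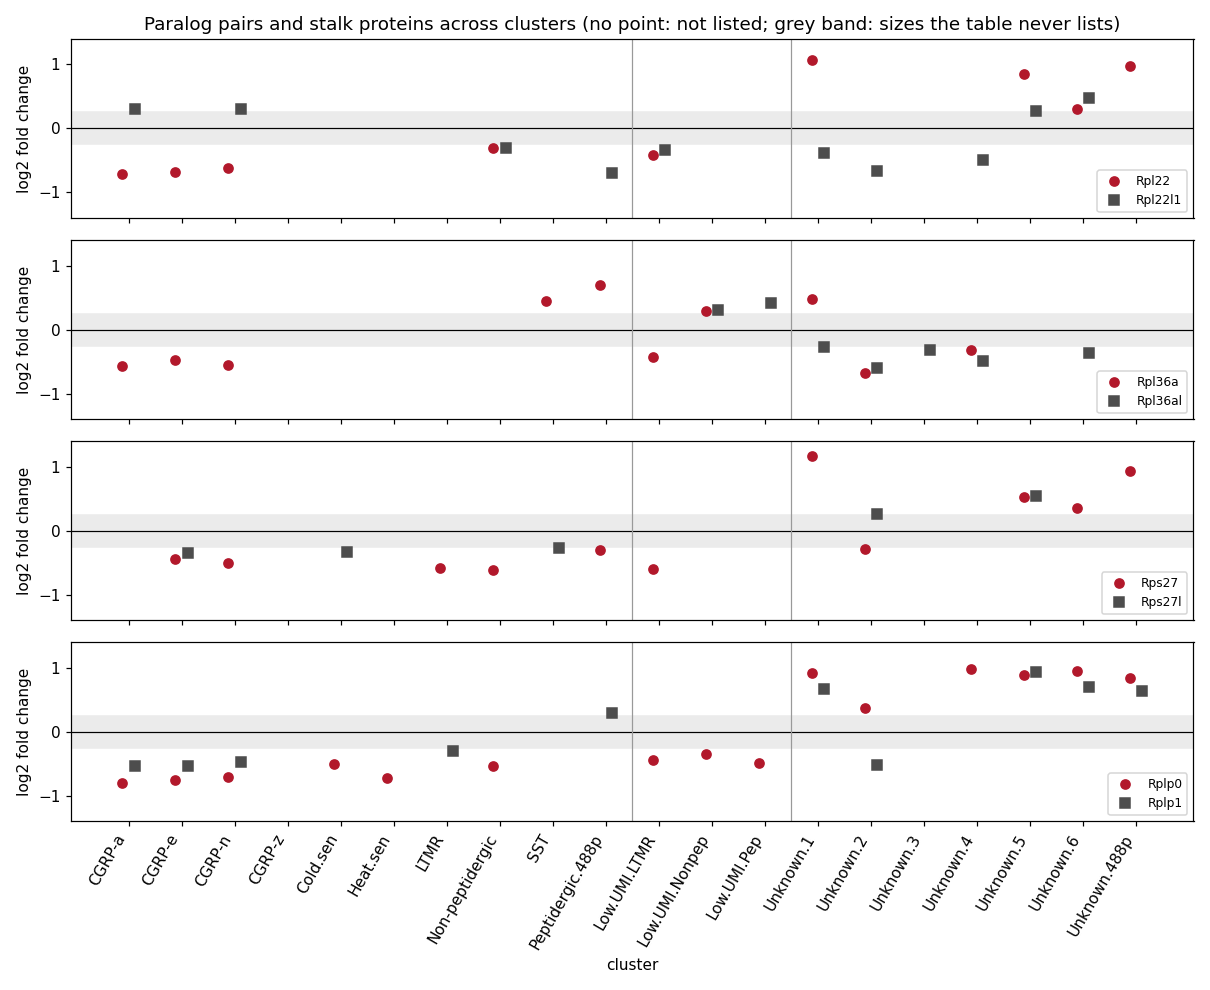
Deposited log2 fold change per cluster of Rpl22 and Rpl22l1, Rpl36a and Rpl36al, Rps27 and Rps27l, and the stalk genes Rplp0 and Rplp1, with no point where the table lists no value and a grey band over sizes the table never lists. Rpl22 and Rpl22l1 lie on opposite sides of 0 in CGRP-a (-0.72 and 0.31) and in Unknown.1 (1.07 and -0.38), and Rplp0 lies above 0 and Rplp1 below it in Unknown.2.

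The members' profiles over the clusters were compared by Pearson's r between a gene's log2 fold changes and the median of the other members, over the clusters that list the gene. All points share the same other cells, and r is given as a description. Among the 70 members listed in at least 6 clusters, r ran from 0.19 for Rpl22l1 (10 clusters) through 0.56 for Rpl36al (7 clusters) and 0.60 for Rplp0 (15 clusters) to 0.996 for Rps27a (7 clusters), which is made as a fusion with ubiquitin. Rpl22l1, Rpl36al and Rplp0 thus had the lowest r of these 70 members, and Rps27l, Rpl7l1 and Rps19bp1 were listed in too few clusters for a value.

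Among 859 genes outside the family that were listed in at least 15 clusters, Tpt1 had the profile most like the members' median, with r of 0.75 over 16 clusters. Members were scored from 6 clusters on, so their r and those of the outside genes are not compared. Rplp0, the sole member listed in at least 15 clusters, had r of 0.60. Outside genes listed in fewer clusters, such as Eef1a1 and Rack1, were not ranked. Tpt1 encodes the translationally controlled tumour protein, and its mRNA also carries a TOP tract. Tpt1 in the authors' deposited table was 1.16 in Unknown.1 and in Unknown.488p, 0.77 in Unknown.5, 0.68 in Unknown.6, and -0.64, -0.58 and -0.55 in CGRP-a, CGRP-e and CGRP-n. The next were Emp1 (0.70), Cmss1 (0.69), Ldlrad4 (0.69), Srgn (0.66), Fli1 (0.65), Ifitm2 (0.65), Tgfbr2 (0.64), Ly6e (0.64) and Gm42418 (0.62), each r over 15 to 19 clusters. The least like were Pex5l (-0.82), Dst (-0.76), Lsamp (-0.75), Srgap3 (-0.74), Dpysl5 (-0.73), Adgrl1 (-0.73), Pygb (-0.72), Atp8a2 (-0.71), Rbms3 (-0.71) and C530008M17Rik (-0.70), over 15 to 20 clusters. With the large subunit genes alone 10 of the 10 most like genes were the same, and with the small subunit genes alone 3 were.

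The partners of the ribosome outside the naming rule mostly took the members' side. Rack1, a scaffold protein on the head of the 40S subunit, was 1.08 in Unknown.488p, 0.99 in Unknown.1, 0.61 in Unknown.5 and 0.45 in Unknown.6, and -0.39 in Unknown.2 and -0.59 in Low.UMI.LTMR, all from the authors' deposited table. Fau, which yields the 40S protein S30, was 0.99 in Unknown.488p and 0.33 in Unknown.1, and -0.67 in Unknown.2, -0.31 in CGRP-a, -0.30 in CGRP-n and -0.27 in Unknown.4, with 0.26 in Low.UMI.Pep in the authors' deposited table.

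Of the 13 elongation factors and other mRNAs with a TOP tract on the fixed list, 5 were higher and 1 lower in Unknown.1, 0 higher and 10 lower in Unknown.2, 5 higher and 1 lower in Unknown.5, and 3 higher and 3 lower in Unknown.488p. Over all genes 18% were higher and 28.8% lower in Unknown.1, 13% and 27.4% in Unknown.2, 9.67% and 20.4% in Unknown.5, and 9.91% and 33% in Unknown.488p. In the CGRP clusters 2 of the 13 were higher and 3 lower in CGRP-a, 0 and 1 in CGRP-e, and 1 and 1 in CGRP-n. All genes gave 12.5% higher and 7.26% lower in CGRP-a, 9.77% and 5.65% in CGRP-e, and 9.61% and 4.32% in CGRP-n. Eef1a1, the elongation factor that delivers tRNA, was 0.60 in Unknown.1, 0.44 in Peptidergic.488p, 0.32 in Unknown.5, 0.31 in Unknown.488p, -0.66 in Unknown.2, -0.43 in Low.UMI.LTMR and -0.39 in LTMR in the authors' deposited table. Eef1a2, the form found in neurons and muscle, was lower in all 7 Unknown clusters, from -1.92 to -1.36, and higher in 7 neuron clusters, up to 1.23 in SST, in the authors' deposited table. Npm1, a nucleolar chaperone of ribosome assembly, was lower in Low.UMI.LTMR (-0.29) and Unknown.2 (-0.63) in the authors' deposited table. Eef1a1 thus went with the ribosomal proteins in the Unknown clusters that list it, which are Unknown.1, Unknown.2, Unknown.5 and Unknown.488p. In the same clusters Eef1a2 went against the ribosomal proteins, apart from Unknown.2, where it was lower as most of them were.

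The proteins of the mitochondrial ribosome, which is separate from the cytosolic one, leaned opposite to the members in some clusters and the same way in others. Of the 64 genes in the table, 0 were higher and 46 lower in Unknown.1, 0 and 10 in Unknown.5, 0 and 48 in Unknown.488p and 0 and 36 in Unknown.6, all clusters in which the cytosolic members were mostly higher. In Unknown.2, Unknown.3 and Unknown.4, 27, 33 and 34 were lower and 0 higher, and the called members were mostly lower too in Unknown.2 and Unknown.4. All genes leaned to lower calls in each Unknown cluster, with 20.4% (Unknown.5) to 33% (Unknown.488p) lower. In the Low.UMI clusters 21 of the 64 were higher and 3 lower for LTMR, 32 and 1 for Nonpep, and 35 and 0 for Pep. Over all genes 10.9%, 10.9% and 10.8% were higher in these clusters. The called values of largest size in the authors' deposited table were both of Mrps33, with -1.06 in Unknown.3 and 0.60 in Low.UMI.Nonpep. In CGRP-a, CGRP-e and CGRP-n 2, 2 and 1 of the 64 were lower, where 38, 39 and 37 of the 82 cytosolic members were lower.

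Initiation factors, which bring the small subunit to the mRNA, gave 29 of 32 listed genes in the table. In Unknown.2 1 was higher and 20 lower, in the same direction as the ribosomal proteins, led by Eif4a2 (-1.29), Eif5 (-0.84) and Eif3f (-0.75) in the authors' deposited table. In Unknown.1 1 was higher and 5 lower, led by Eif1b with -1.24 in the authors' deposited table, where 67 ribosomal protein genes were higher. Over all genes 18% were higher and 28.8% lower in Unknown.1, and 13% and 27.4% in Unknown.2. The lower initiation factors of Unknown.1, 5 of 29, thus lay below the share of all genes. In Low.UMI.LTMR 9 initiation factors were higher and 1 lower, against 10.9% and 20.1% of all genes, beside 30 lower ribosomal protein genes. Of the 29 ribosome assembly genes on the fixed list 14 were in the table, with 0 higher and 4 lower in Unknown.2, led by Nop10 with -0.78 in the authors' deposited table, and 4 higher and 0 lower in Low.UMI.LTMR. The 4 of 14 lower in Unknown.2 lay near the share of all genes. Of the 21 genes on the list of the mTORC1 pathway and the ribosomal S6 kinases 12 were in the table. The genes among them with names of ribosomal S6 kinases were Rps6ka1, Rps6ka2, Rps6ka3 and Rps6ka5, while Rps6kb1 and Rps6kb2 were not in the table. These names alone do not show that a kinase acts on Rps6 or under mTORC1. Of the 12, 2 were higher and 3 lower in Unknown.1, 0 and 3 in Unknown.2, and 0 and 0 in CGRP-a. The 3 of 12 lower in Unknown.1 and in Unknown.2 lay near or below the shares of all genes. In CGRP-e 3 of the 12 were higher (Deptor, Rps6ka3 and Rps6ka5) and 0 lower, against 9.77% and 5.65% of all genes. In CGRP-n 1 was higher and 0 lower, against 9.61% and 4.32%. Rps6ka5 was higher in CGRP-e with 1.15 and in CGRP-n with 1.13 in the authors' deposited table. Rheb, the activator of mTORC1, was -0.77 in Unknown.1 and -0.80 in Unknown.2 in the authors' deposited table, clusters in which the ribosomal proteins lay on opposite sides.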

How the data were processed

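Cells of dorsal root ganglia were sequenced as 4 samples, taken here as lanes of 1 library, for each of 2 sorted populations, and 1 table of cluster markers was used. Its columns, per the file headers, are the p-value and adjusted p-value that the authors deposited for a gene in a cluster, the average log2 fold change of that cluster over the rest of the cells, and a fraction of cells with the transcript for either side. Seurat is named in the submitters' processing notes. Aligner, build, annotation, filters on cells, normalization, doublet handling and the number of cells were not given in the sources used here. A procedure for nuclei is named in the extraction protocol, and the labels do not say whether nuclei or whole cells were loaded.

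The 20 clusters and 9229 genes make 56694 listed pairs. Depth and cell numbers are unknown, so no interval was attached to any share. Counts, medians, ranges and Pearson's r were computed from the deposited values with pandas 2.3.3 and numpy 2.4.6. No test was run, since no column belongs to a sample. Code for the counts was checked on simulated data. Fractions are printed as percentages. The members, gene lists and rules were chosen with earlier results of these data known. The genes named are, per cluster, the members of largest and smallest log2 fold change past the filter and up to 3 against the majority, the 5 listed in the fewest clusters, those of widest and narrowest range among members listed in at least 15 clusters (1 member, Rplp0), all paralogs, a few fixed translation genes, up to 3 genes of each related list, and the nearest genes. Rpl22, Rplp2, Rps27a and the start sites shown were added after their values were seen. The alternatives were a stricter adjusted p, a minimum fold change, agreement of the share of cells, a minimum share, the core set alone, each subunit alone, and widely detected genes as background. Protein sequences were not used here. Values of single genes that are withheld are not reported here, and the counts and medians include them.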

Additional observations from a re-analysis of the deposited data

How the results depend on the processing

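Filters on size and on detection were tried beside the main rule. At an adjusted p under 0.001 the counts of higher and lower members stayed within 1.5 times in most clusters. The exceptions were the lower members of Cold.sen (5), Heat.sen (2), Peptidergic.488p (1), Unknown.3 (3) and Unknown.6 (0) and the higher members of Unknown.4 (1), with medians of -0.65 in Heat.sen and 0.28 in Unknown.3, the last a change of sign.

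At an absolute log2 fold change of at least 0.5, the lower members were 10 in each of CGRP-a and CGRP-e, 6 in CGRP-n, 5 in LTMR, 2 in Non-peptidergic, 6 in Low.UMI.LTMR, 31 in Unknown.2, 1 in Unknown.3 and in Peptidergic.488p, and 0 in Cold.sen, SST, Low.UMI.Nonpep, Low.UMI.Pep, Unknown.1, Unknown.4 and Unknown.6. The higher members were 30 in Unknown.5, 5 in Unknown.6, 1 in Peptidergic.488p, Low.UMI.Nonpep, Unknown.3 and Unknown.4, and 0 in CGRP-a, CGRP-n, CGRP-z, Cold.sen, LTMR, Non-peptidergic, SST, Low.UMI.Pep and Unknown.2. The medians were -0.56 in CGRP-a and CGRP-e, -0.55 in CGRP-n, -0.65 in Heat.sen, -0.57 in Non-peptidergic and -0.58 in Low.UMI.LTMR. They were 0.63 in Unknown.6, -0.00234 in Unknown.3 and -0.000306 in Peptidergic.488p, the last with another sign than the main value. The values of -0.60 in CGRP-z, 0.54 in Low.UMI.Nonpep and 0.99 in Unknown.4 were those of 1 gene each. These genes were Rpl28, Rps26 and Rplp0, and the value in Unknown.4 also had another sign than the main one.

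Where the share of cells also had to differ in the direction of the fold change, 0 lower members remained in CGRP-a, CGRP-e, CGRP-n, CGRP-z, Cold.sen, Heat.sen, LTMR, Non-peptidergic, SST and Unknown.6, 1 in Unknown.1, 9 in Unknown.2 and 3 in Unknown.3, and 0 higher members in Low.UMI.Pep and Low.UMI.Nonpep. In Unknown.3 the median then changed sign, to 0.28. Elsewhere a changed sign came from 1 remaining gene, so no family median was left to compare. These single genes were Rpl22l1 in CGRP-a (0.31) and CGRP-n (0.30), Rpl17 in CGRP-z (0.29) and Rpl3 in Cold.sen (0.29). The others were Rps9 in LTMR (0.25), Rpl28 in Non-peptidergic (0.37) and Rplp0, with -0.49 in Low.UMI.Pep and -0.35 in Low.UMI.Nonpep. The lower calls of the neuron clusters and the higher calls of these Low.UMI clusters thus rest on the fold change and not on the share of cells.

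With the core set only, the higher members were 0 in CGRP-a and CGRP-n, 5 in Low.UMI.Nonpep and 1 in Unknown.2, and the lower ones 1 in Peptidergic.488p and 0 in Unknown.1. With genes detected in at least 50% of either side, Unknown.1 had 1 lower member. Small subunit genes alone shared 3 of the 10 most like and 5 of the 10 least like genes. Widely detected genes as background moved 15 of the 40 shares of called genes by over 1.5 times, among them the lower share in Unknown.1 from 28.8% to 52.7%. No paired analysis was possible because the table has no column for any sample, and leaving out a replicate was not run for the same reason.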
